A study of Mus musculus with 8 samples.

Results

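Of 45700 merged regions of histone H3 acetylated at lysine 27 (H3K27ac) in mouse collecting duct cells, 1149 (2.51%) were called in both vehicle lists and in neither dDAVP list. They are named vehicle-only regions here. The members were selected by merging overlapping or touching peaks of 4 deposited peak lists on the 19 autosomes and X. A merged region was kept when a peak of each vehicle list overlapped it and no peak of either dDAVP list did. The opposite pattern, both dDAVP lists and no vehicle list, held 29 regions (0.0635%). The calls chose the members, so their pileup, enrichment and width are described without a test.

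The cells were mpkCCD cells, clone 11, an immortalised line from mouse kidney cortical collecting duct, at passages 6 to 10 on permeable supports. The vehicle cells and the cells given 0.1 nM dDAVP, an agonist of the V2 vasopressin receptor, were treated for 24 h, and both groups had first spent 24 h in medium without serum or hormones. Chromatin immunoprecipitation and sequencing were done in 2 experiments, each with 1 vehicle and 1 dDAVP library and an input library for each. Nothing in the labels tells whether the experiments were independent cultures, and all libraries come from 1 clone. Experiment numbers serve as replicate numbers below.

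H3K27ac is laid down by acetyltransferases such as p300 and CBP at active promoters and enhancers. Vasopressin raises cAMP in principal cells of the collecting duct, activates protein kinase A, and over hours to days raises transcription of the water channel gene Aqp2. A call marks a stretch where immunoprecipitated tags exceeded the local background, so a region without a call may still carry some acetylation.

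Promoters that lay wholly inside a vehicle-only region are shown because the sequence table used here holds promoters only. They stand for a small part of the set, since 60 of the 1149 members (5.22%) overlapped a promoter window and most members lay between genes or in gene bodies. Of 32619 RefSeq promoter windows (250 bases before to 50 after a transcription start, GRCm38.p6), 68 (0.208%) were overlapped by a member and 43 lay wholly inside one. The 6 below belong to the members with the highest pileup ranks among these. They are printed 5′ to 3′ on the strand of the gene, with CG dinucleotides, the sites of DNA methylation in mammals, in capitals.
AA414768 promoter, chrX:12936623-12936922, plus strand: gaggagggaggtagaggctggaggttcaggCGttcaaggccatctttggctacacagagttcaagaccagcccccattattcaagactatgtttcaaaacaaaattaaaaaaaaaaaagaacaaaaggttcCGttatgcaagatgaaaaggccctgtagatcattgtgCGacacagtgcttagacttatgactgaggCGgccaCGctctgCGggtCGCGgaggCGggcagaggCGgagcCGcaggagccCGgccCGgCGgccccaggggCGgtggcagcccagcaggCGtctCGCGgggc
Derl3 promoter, chr10:75893148-75893447, plus strand: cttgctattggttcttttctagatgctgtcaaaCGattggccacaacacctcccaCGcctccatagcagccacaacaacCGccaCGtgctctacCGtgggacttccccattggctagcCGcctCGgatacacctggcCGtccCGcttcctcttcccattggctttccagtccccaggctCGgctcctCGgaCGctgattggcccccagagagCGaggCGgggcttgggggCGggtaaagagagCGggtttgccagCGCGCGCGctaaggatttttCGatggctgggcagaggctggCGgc
Gm36346 promoter, chr13:48110068-48110367, minus strand: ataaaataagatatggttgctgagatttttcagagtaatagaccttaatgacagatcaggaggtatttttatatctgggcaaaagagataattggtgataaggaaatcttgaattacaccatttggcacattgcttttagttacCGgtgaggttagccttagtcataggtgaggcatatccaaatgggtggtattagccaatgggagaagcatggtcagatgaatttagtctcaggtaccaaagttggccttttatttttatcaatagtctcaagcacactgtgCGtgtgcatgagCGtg
Gna14 promoter, chr19:16435417-16435716, plus strand: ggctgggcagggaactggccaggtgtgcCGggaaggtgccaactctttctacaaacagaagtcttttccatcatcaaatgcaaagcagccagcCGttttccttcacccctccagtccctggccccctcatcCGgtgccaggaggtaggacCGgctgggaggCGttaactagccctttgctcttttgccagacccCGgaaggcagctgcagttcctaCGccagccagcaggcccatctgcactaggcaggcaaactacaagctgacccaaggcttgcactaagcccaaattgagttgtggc
Arid3b promoter, chr9:57836730-57837029, minus strand: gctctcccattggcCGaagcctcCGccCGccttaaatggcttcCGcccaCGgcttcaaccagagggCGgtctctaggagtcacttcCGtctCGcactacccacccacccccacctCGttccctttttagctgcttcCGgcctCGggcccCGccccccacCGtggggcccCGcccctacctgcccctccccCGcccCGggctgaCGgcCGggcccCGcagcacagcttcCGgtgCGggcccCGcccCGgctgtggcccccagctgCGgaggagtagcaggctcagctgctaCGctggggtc
Gm12923 promoter, chr4:123093722-123094021, minus strand: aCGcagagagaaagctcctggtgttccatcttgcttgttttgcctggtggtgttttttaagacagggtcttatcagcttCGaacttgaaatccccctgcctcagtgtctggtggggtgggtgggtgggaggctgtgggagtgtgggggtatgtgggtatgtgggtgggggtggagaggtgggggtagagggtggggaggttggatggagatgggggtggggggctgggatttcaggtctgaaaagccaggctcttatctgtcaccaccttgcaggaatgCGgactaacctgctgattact

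AA414768, Derl3, Gna14 and Arid3b are protein-coding, and Gm36346 and Gm12923 are long non-coding RNA genes. The Arid3b window was the richest of the 6 in C and G, at 72.3%, with 25 CG dinucleotides. Derl3, a gene of the pathway that clears misfolded proteins from the endoplasmic reticulum, had 22 CG dinucleotides, AA414768 had 18, and Gna14, which encodes a G protein alpha subunit, had 7. Both long non-coding windows had 3. Over the 43 windows the median was 10 CG dinucleotides at 58.3% C and G, beside 7 at 53% over all 32619. Both kinds of window therefore occur among the members, CG-dense and CG-poor.

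Motifs were searched by their letters on both strands of each window, and a match describes letters only. The half-site TGACG, the core of the cAMP response element bound by CREB, was in 14 of the 43 windows (32.6%) and in 20.9% of all windows. Among the printed sequences only Arid3b held it. TGACG contains a CG, and the 43 windows had a higher median of CG dinucleotides than all windows. The shares were not compared at like composition or with windows inside other called regions. The full element TGACGTCA, which contains the half-site, was in 0 of 43 and in 1.80% of all. TGANTCA, bound by AP-1 factors, was in 3 of 43 (6.98%; all windows 7.85%). AGATAA, bound by GATA factors, was in 7 of 43 (16.3%; all windows 11.2%), with Gm36346 and Gm12923 among the holders. The TATA box TATAAA was in 8 of 43 (18.6%; all windows 13.7%), and Gm36346 held 1. The 43 windows belong to 38 genes, of which 26 are protein-coding. Those 26 include the transcription factor genes Eomes and Mycl, the receptor genes Nrp2 and Ramp1, and Flnc, which encodes an actin-binding filamin; these 5 were picked for naming after the list was seen.

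The 4 lists differed in length. In experiment 1 the dDAVP list used here had 37232 peaks (99.0 Mb) and the vehicle list 39741 (104 Mb). In experiment 2 the numbers were 20122 (33.5 Mb) and 29594 (56.9 Mb). In both experiments the dDAVP list was the shorter, and a region then has fewer chances of a dDAVP call. Kept tags of the immunoprecipitated libraries were 27923780 and 32705755 in experiment 1 and 31676748 and 31283282 in experiment 2, dDAVP before vehicle, so the dDAVP library was the shallower in experiment 1 and the deeper in experiment 2. The part of list length and depth in the vehicle-only calls was not tested and, with 1 library per treatment and experiment, cannot be told apart from treatment. At gene ends, 7 of 8 principal cell markers, Aqp2 and Avpr2 among them, and 6 of 6 epithelial markers were called in all 4 lists. Markers of other cells were called in all 4 lists for 1 of 5 (intercalated cell, proximal tubule, and leukocyte and endothelium) and for 0 of 3 or 0 of 4 (thick limb and distal tubule, fibroblast).

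**Figure D1:**
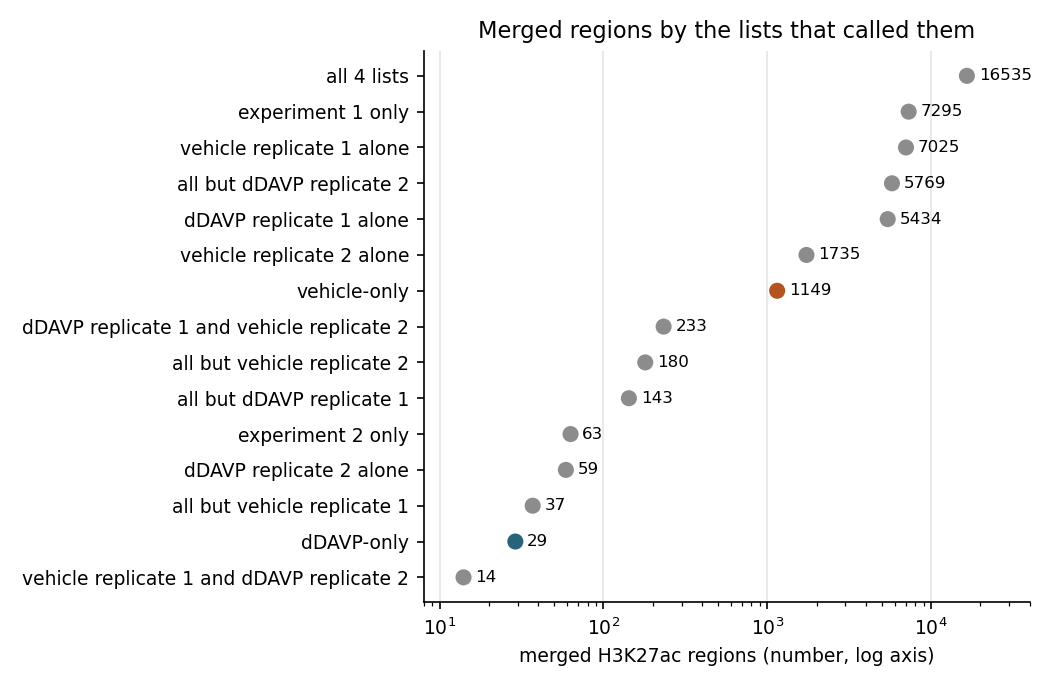
Number of merged H3K27ac regions (horizontal log axis) for each combination of lists that called them; each point is 1 combination. The 1149 vehicle-only regions and 29 dDAVP-only regions are coloured, and 16535 regions were called in all 4 lists.

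The vehicle-only regions were weak and short in the lists that called them. Pileup, the authors' mean tag coverage of a peak, ran from 11 to 60.67 with a median of 13.03 in vehicle replicate 1, where the lowest peak of the whole list had 11 and the list median was 16.32. In vehicle replicate 2 it ran from 10 to 57.33 with a median of 12.22, where the lowest peak had 10 and the list median was 17.23. Most members thus lay just above the weakest peaks of each list. Their pileup was at or below the list median for 1073 members in vehicle replicate 1 (93.4%) and 1106 in vehicle replicate 2 (96.3%), and 13 members were above it in both. The dDAVP lists give no pileup for these places, since a list holds values only where a peak was called. Regions called in both lists of experiment 1 only had a median of 13.4 in vehicle replicate 1. Those called in dDAVP replicate 1 and vehicle replicate 2 only had 11.82 in vehicle replicate 2. Those called in all but dDAVP replicate 2 had 15.96 and 12.7 in the vehicle lists. Low pileup was thus shared with these partly called regions, with 1 exception. In vehicle replicate 1, regions called in all but dDAVP replicate 2 were near the list median.

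Fold enrichment is the authors' value for pileup relative to local background. Its medians were 2.58 and 2.71 in vehicle replicates 1 and 2, beside 3.10 and 3.54 for all peaks of those lists. A listed −log10 q of at least 2 was reached in both lists by 310 members (26.98%, 95% Wilson interval 24.5 to 29.6). The other members had a lower listed value in at least 1 vehicle list. Merged width ran from 241 to 6191 bp with a median of 1153 bp. The median was 2009 bp for regions called in all but dDAVP replicate 2 and 3476 bp for regions called in all 4 lists. It was 1487 bp for regions of experiment 1 only and 969 bp for those of dDAVP replicate 1 and vehicle replicate 2 only. The stretch covered by both vehicle lists was a median of 46.0% of a member. Across the 1149 members, which share 2 libraries, Spearman's rho between the vehicle pileups was 0.269, a description of these regions only.

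**Figure D2:**
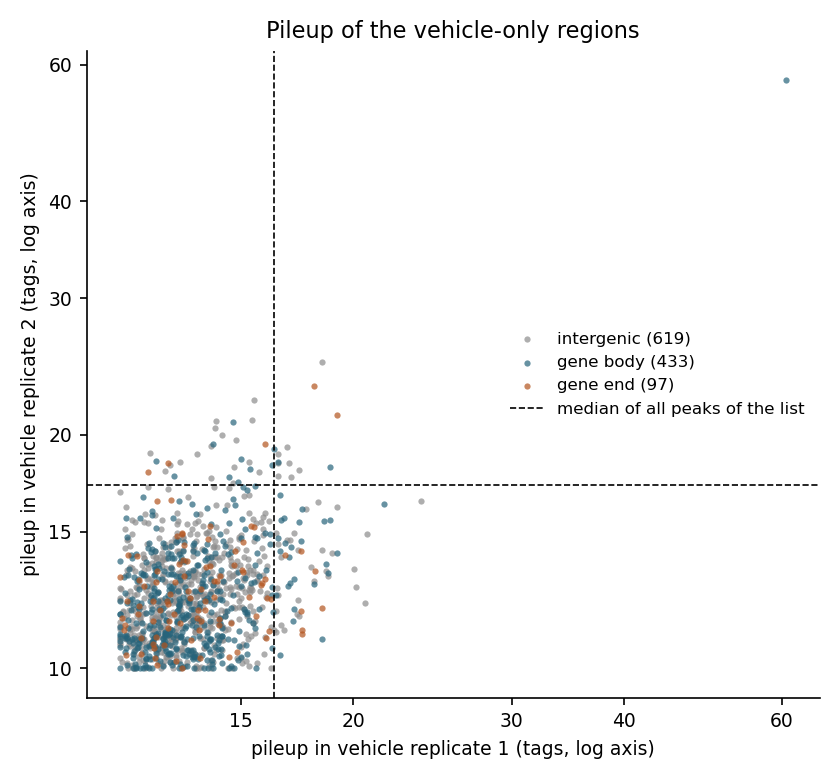
Pileup (tags, log axes) of each of the 1149 vehicle-only regions in vehicle replicate 1 (horizontal) and vehicle replicate 2 (vertical), coloured by position; dashed lines are the medians of all peaks of each list, 16.32 and 17.23. Most points lie below both medians, and the point at 60.67 and 57.33 is the Apool region.

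The member with the highest pileup lay in Apool, which encodes a mitochondrial inner membrane protein, on chromosome X from 112370891 to 112371285 (mm10, as for all coordinates). Its pileup was 60.67 in vehicle replicate 1 and 57.33 in vehicle replicate 2, but its fold enrichment was the lowest of all members, 1.64 and 1.62. Pileup divided by fold, only an approximate measure of the local background, was 36.9 and 35.3 there, beside 5.33 and 4.65 at Cnmd. The background at Apool was therefore high in both experiments. Another region has Max, the gene of the dimer partner of Myc, as its nearest gene at 129698 bp. By the same approximate measure its background was also higher than at Cnmd, 9.02 and 10.9, with folds of 2.05 and 2.28.

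The next member was at an end of Cnmd, which encodes chondromodulin, a secreted inhibitor of vessel growth (chromosome 14, 79660090 to 79661294). Pileup there was 19.17 and 21.22, fold 3.59 and 4.56, and the nearest dDAVP peak was 71379 bp away. Within 10 kb of Cnmd the lists covered 1187 bp in vehicle replicate 1, 1171 bp in vehicle replicate 2 and 0 bp in either dDAVP list, and coverage around other genes below is within the same distance. Ckb, the gene of brain-type creatine kinase, had a member of 318 bp near its end (chromosome 12, 111668568 to 111668885) with pileups of 18.10 and 23.12. A second Ckb member, from 111673275 to 111674405, was lower, at 14.74 and 13.61. Around Ckb all 4 lists had some coverage, with 1980 bp (dDAVP) and 4126 bp (vehicle) in experiment 1 and 1147 and 2355 bp in experiment 2.

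Cftr, the cAMP-activated chloride channel gene, held 2 members in its body. The stronger (chromosome 6, 18270829 to 18272149) had pileups of 18.84 and 18.20 and folds of 3.80 and 3.95, and the weaker (18253849 to 18255379) had pileups of 11.40 and 13.11. Within 10 kb of the gene, dDAVP replicate 1 covered 3009 bp and vehicle replicate 1 6676 bp, and in experiment 2 the extents were 1050 and 4184 bp. The vehicle list covered more in both experiments, and each dDAVP list kept some calls. The nearest genes of the rest of the 12 highest members were Pabpc2, Adgrl4, Hoxb1, Bcas2, Fat4, Frem2 and Wdr70. Their pileups lay between 16.49 and 17.41 in vehicle replicate 1 and between 17.66 and 19.27 in vehicle replicate 2. Only the Wdr70 member lay in a gene. The member nearest to Fat4, an atypical cadherin gene, was 346960 bp from it and 473781 bp from a dDAVP peak. The distances at Fat4, at Adgrl4 (319424 bp) and at Max exceed the 100 kb used below to link a region to a gene.

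Position relative to genes was not used to choose the members. Widths differed between calling patterns, though, and a wider region overlaps a gene end more easily. A region was counted at a gene end when it overlapped 1 kb either side of an end of a protein-coding gene, otherwise in a gene body or intergenic; the gene table used has no strand, so both ends count. Of the 1149 members, 97 lay at a gene end (8.44%, 95% Wilson interval 6.97 to 10.2), 433 in a gene body (37.7%, 34.9 to 40.5) and 619 between genes (53.9%, 51.0 to 56.7). Of regions called in all 4 lists, 54.0% were at a gene end. Members away from gene ends were a median of 30929 bp from the nearest one.

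Against 3 similar calling patterns, the vehicle-only set differed in 5 of 6 tests of position (Fisher's exact test, two-sided, Benjamini-Hochberg adjusted over the 6). Regions called in all but dDAVP replicate 2 (5769) were at a gene end in 17.5% of cases, an odds ratio of 0.435 for the vehicle-only regions (95% interval 0.350 to 0.541; Fisher's exact test, adjusted p = 1.37e-15). Regions called in both lists of experiment 1 only (7295) were at a gene end in 10.9% (odds ratio 0.754, 0.605 to 0.940; Fisher's exact test, adjusted p = 0.0170). A group of 233 regions called in dDAVP replicate 1 and vehicle replicate 2 only, which also need 1 list of each experiment, gave 5.15% (odds ratio 1.70, 0.916 to 3.15; Fisher's exact test, adjusted p = 0.109). The vehicle-only regions were thus at gene ends less often than 2 of the patterns, and a difference from the remaining pattern was not detectable. By the midpoint of a region, the ratio against all but dDAVP replicate 2 was 0.454 (Fisher's exact test, adjusted p = 3.29e-11). Against experiment 1 only it was 0.849 by the midpoint (Fisher's exact test, adjusted p = 0.232). With lists of equal length within each experiment the contrast with experiment 1 only was 0.869 (Fisher's exact test, adjusted p = 0.640). Under a fold limit of 4 the contrast with dDAVP replicate 1 and vehicle replicate 2 turned to 0.455 (Fisher's exact test, adjusted p = 0.00445).

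Gene bodies held 37.7% of the members, against 44.6% of regions called in all but dDAVP replicate 2 (odds ratio 0.751, 0.660 to 0.856; Fisher's exact test, adjusted p = 3.33e-05). The share was 59.7% for regions of experiment 1 only (odds ratio 0.408, 0.359 to 0.464; Fisher's exact test, adjusted p = 2.70e-43) and 30.04% for dDAVP replicate 1 with vehicle replicate 2 (odds ratio 1.41, 1.04 to 1.91; Fisher's exact test, adjusted p = 0.0363). Regions are not replicates, so these p-values cover counting only. Among regions in single lists, 61.7% of those in vehicle replicate 1 alone and 34.6% of those in vehicle replicate 2 alone were in gene bodies, so position also moved with the experiment. The gene body contrast with all but dDAVP replicate 2 turned to 1.28 with lists of equal length and to 1.89 with a −log10 q limit of 5. Against dDAVP replicate 1 with vehicle replicate 2 the ratio was 0.815 at equal length, and this call was also lost at both limits and with equal length within experiments (Fisher's exact test, adjusted p from 0.338 to 0.843 over these 4 settings). The contrast with experiment 1 only turned to 1.05 at that q and to 1.42 at a fold of at least 4.

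**Figure D3:**
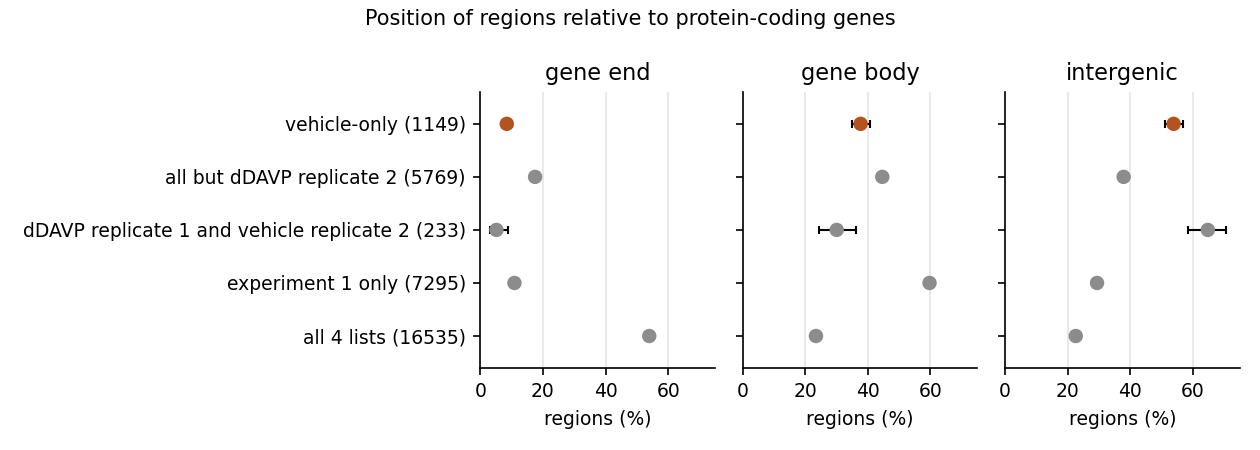
Share of regions (%) at a gene end, in a gene body and between genes for vehicle-only regions and 4 other calling patterns, with the number of regions in brackets; bars are 95% Wilson intervals. The vehicle-only regions were 8.44% at gene ends and 53.9% intergenic, while regions of all 4 lists were 54.0% and 22.6%.

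The 97 members at gene ends touched the ends of 104 of 21631 protein-coding genes (0.481%). Among the 20 with the highest pileup ranks was Ccnd1, which encodes cyclin D1, the regulatory partner of the kinases that start the cell cycle. Its member was the widest of all, 6191 bp (chromosome 7, 144937243 to 144943433), with pileups of 14.76 in vehicle replicate 1 and 14.15 in vehicle replicate 2 and folds of 2.97 and 3.35. Within 10 kb of Ccnd1 the vehicle lists covered 3750 and 6191 bp and the dDAVP lists 0 bp each. The nearest dDAVP peak was 15004 bp from the region. A second Ccnd1 member lay 84716 bp from the gene, with pileups of 13.34 and 15.41.

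Usp31, a deubiquitinase gene, had pileups of 15.93 and 19.46 at its end (chromosome 7, 121706633 to 121707482). Gna14 had 16.77 and 14.01 (chromosome 19, 16435194 to 16436272), and Dmwd had 18.15 and 13.34 (chromosome 7, 19076565 to 19077234). These 3 were ranked differently by the vehicle lists, with Usp31 higher in replicate 2 and the others higher in replicate 1. Lep, the leptin gene, had 15.08 and 13.30, and Parvb, the gene of the focal adhesion protein beta-parvin, had 15.08 and 14.56. Ppp2r1b, which encodes a scaffold subunit of protein phosphatase 2A, had 13.79 and 14.67. The rest of the 20 were at ends of AA414768, Derl3, Eif3j2, Arid5b, Hspa2, Arid3b, Pop5, A630001G21Rik and Tarsl2, and of the neighbours Bmp1 and Sftpc, which share 1 member. Across all 20, pileup ran from 13.70 to 19.17 in vehicle replicate 1 and from 12.96 to 23.12 in vehicle replicate 2. Distances to the nearest dDAVP peak ran from 1330 bp at Pop5 to 425266 bp at Eif3j2.

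Many members lay near sites that were called with dDAVP. A dDAVP peak was within 1 kb of 58 members (5.05%), within 10 kb of 592 (51.5%) and within 100 kb of 1065 (92.7%). The median distance was 9753 bp to a peak of dDAVP replicate 1 and 19448 bp to one of the shorter list of replicate 2, and the nearest was of replicate 1 for 1058 members. A region called in all 4 lists was a median of 19141 bp away, and within 10 kb for 35.7% of members. The same share was 40.1% for regions called in all but dDAVP replicate 2 and 48.1% for regions of experiment 1 only. It was 30.9% for regions of dDAVP replicate 1 and vehicle replicate 2 only. Nearness to such regions was thus not particular to the members. The members closest to losing their place were in Cald1, 10 bp from a dDAVP peak, and linked to Ankrd44, 15 bp, and in Fndc3b, 21 bp. Just outside the rule were regions in Arhgap29 and Kirrel3, where dDAVP replicate 1 covered 255 bp (4.61% of the region) and 365 bp (6.93%), and in Arhgap22, where dDAVP replicate 2 covered 301 bp (6.06%). Cases on either side of the rule were thus separated by short stretches of dDAVP call.

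**Figure D4:**
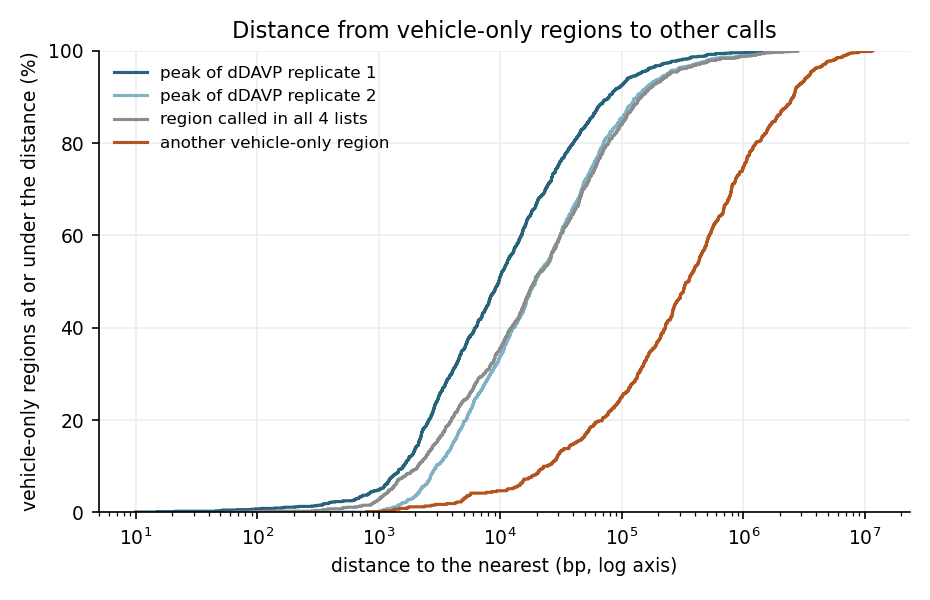
Cumulative share (%) of the 1149 vehicle-only regions by distance (bp, log axis) to the nearest peak of each dDAVP list, region called in all 4 lists, and other vehicle-only region. The curve for dDAVP replicate 1 reaches 51.0% at 10 kb, and the curve for other vehicle-only regions reaches 24.98% at 100 kb.

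With the lists as deposited, most members had no other member nearby. Another member was within 20 kb of 97 (8.44%), within 50 kb of 193 (16.8%) and within 100 kb of 287 (24.98%), and the median distance was 350960 bp. Chaining members up to 50 kb apart left 956 single regions, 75 pairs, 13 groups of 3 and 1 group of 4. Chromosomes differed in the vehicle-only share of their regions, from 1.49% on chromosome 17 to 4.14% on X. The largest number, 91, was on chromosome 1. The share within 50 kb moved with the size of a set: it was 6.01% among the 233 regions of dDAVP replicate 1 with vehicle replicate 2 and 49.9% among the 5769 called in all but dDAVP replicate 2. For vehicle-only regions it was 4.97% at equal length (362 regions), 55.5% and 19.6% when the dDAVP list of experiment 1 or 2 was left out, and 39.9% and 63.7% when the vehicle list of experiment 1 or 2 was.

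The group of 4 lay in Apbb2, which encodes an adaptor that binds the amyloid precursor protein, over 65516 bp (chromosome 5, 66549754 to 66615269). Its members had pileups of 12.13, 12.60, 16.60 and 13.58 in vehicle replicate 1 and 11.11, 12.76, 15.53 and 10.42 in vehicle replicate 2. Within 50 kb of the group, dDAVP replicate 1 had 3 peaks over 6455 bp and vehicle replicate 1 had 8 over 14020 bp. In experiment 2 the dDAVP list had 3 over 5219 bp and the vehicle list 7 over 11647 bp. Both dDAVP lists thus called acetylation around the group, with a highest pileup of 34.49 and 23.13.

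The Npr3 group, beside the gene of the natriuretic peptide clearance receptor, held 3 members (chromosome 15, 11800446 to 11837821) with pileups from 11.00 to 14.12 and from 12.61 to 13.68. Within 50 kb of the group dDAVP replicate 1 had 6 peaks and vehicle replicate 1 had 11, against 3 and 7 in experiment 2. The Adamts5 group, linked to an aggrecan-cleaving protease gene, held 3 members (chromosome 16, 85964501 to 85999458) and had the fewest dDAVP calls around it. Within 50 kb of that group dDAVP replicate 1 had 0 peaks and vehicle replicate 1 had 4, and experiment 2 had 1 and 5. Its members lay 63376 to 97337 bp from Adamts5. Nearer the gene, within 10 kb, dDAVP replicate 1 covered 6359 bp and vehicle replicate 1 11521 bp. In experiment 2 the lists covered 3696 and 6107 bp there, so the gene itself had dDAVP calls. Groups of 3 also lay in Fndc3b and beside Ube2q2, a ubiquitin-conjugating enzyme gene. Within 50 kb of the Fndc3b group the counts were 7 and 10 peaks in experiment 1 and 5 and 11 in experiment 2, dDAVP before vehicle. Within 50 kb of the Ube2q2 group they were 7 and 12, and 6 and 14. In all 5 groups the vehicle list held more peaks in both experiments, as the selection of members there requires in part.

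Each member was linked to the protein-coding gene with the nearest end within 100 kb. This gave 849 genes for 946 members, while 203 members (17.7%) were farther away. The 849 genes are 3.92% of 21631 protein-coding genes and 6.40% of the 13263 linked to any merged region, and the counts for gene lists below stand beside these shares. A single member was linked to 762 genes, 2 to 78 genes, 3 to 8 genes and 4 to Apbb2. The 8 with 3 were Adamts5, Arid5b, Frmd6, Gadd45g, Npr3, Nsmce2, Serp2 and Ube2q2. The ends of 450 of the 849 genes (53.0%) were called in all 4 lists, against 45.7% of all protein-coding genes, and 231 (27.2%) were called in no list, against 44.2%. Most linked genes thus had an end called in both dDAVP lists. Linked genes lie within 100 kb of a called region by definition, while only 13263 of the 21631 genes were linked to any merged region. These shares among the 13263 were not computed. The differences from all protein-coding genes are therefore no result about vehicle-only regions.

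Of 23 gene lists with 516 matched genes, 20 had a linked member, through 53 genes and 65 members. Only 2 of those 65 were at a gene end, 20 were in a gene body and 43 between genes. Members near genes of these lists were therefore mostly distal, and the link to a gene is by distance alone.

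Principal cell water and sodium transport gave 1 of 19 genes (5.26%), Nedd4l, whose product ubiquitinates the epithelial sodium channel. Its members had pileups of 14.94 and 11.58 for the one 5387 bp from the gene and 11.61 and 13.27 for the one in the gene body. Aqp2 had none, and within 10 kb of Aqp2 the lists covered 21693, 18388, 14676 and 10594 bp in the order dDAVP and vehicle replicate 1, dDAVP and vehicle replicate 2. The dDAVP list covered more than the vehicle list around Aqp2 in both experiments. Chloride channels and volume regulation gave 2 of 20 (10%), Cftr and Clcn5, a chloride-proton exchanger gene with pileups of 11.41 and 10.54.

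The cAMP and protein kinase A list gave 3 of 45 genes (6.67%). Prkar1b, the gene of a regulatory subunit of that kinase, had 2 members in its body, with pileups of 17.01 and 12.87 (chromosome 5, 139043007 to 139044430) and of 14.21 and 14.91 (139073024 to 139077108). Around Prkar1b dDAVP replicate 1 covered 8702 bp and vehicle replicate 1 16963 bp, and experiment 2 gave 1879 and 14101 bp. Akap7, a kinase-anchoring protein gene, had 13.08 and 13.29, and Adcy8, an adenylyl cyclase gene, had 16.61 and 13.93 at 12955 bp from the gene. Of CREB family, AP-1 and immediate early genes 1 of 30 (3.33%) was linked. It was Sik1, a cAMP-induced kinase gene, through a member 282 bp from a dDAVP peak with pileups of 13.46 and 11.45. Both shares stand beside 3.92% for all protein-coding genes.

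NFAT factors and osmolyte genes gave 5 of 12 (41.7%), the highest share of the 23 lists, in a list of few genes. Nfat5 encodes the factor that responds to hypertonicity, and its targets include Akr1b3, which makes sorbitol, and Slc6a6, which carries taurine. Pileups were 11.95 and 10.82 at Nfat5, 11.59 and 11.75 at Akr1b3, and 11.55 and 10.36 at Slc6a6. Nfatc2 had 12.00 and 10.63, and Rcan1, an inhibitor gene of calcineurin, had 12.29 and 10.90. All 5 were below the median member in both vehicle lists, and a dDAVP peak lay between 691 and 19504 bp away. Around Slc6a6 the covered bases were 30173 and 33721 in experiment 1 and 2587 and 9166 in experiment 2, dDAVP before vehicle.

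EGF, FGF and TGF-beta ligands and receptors gave 9 of 35 (25.7%). Tgfb2, a TGF-beta ligand gene, had members with pileups of 14.04 and 20.41 and of 14.47 and 16.26. Smad3, which carries the TGF-beta signal to the nucleus, had 13.85 and 11.30, and 13.82 and 13.71. Bmp7, a nephron-forming ligand of kidney development, had 12.42 and 10.33, and 12.25 and 10.63, and Pdgfa, a growth factor for mesenchymal cells, had 12.40 and 11.30, and 15.02 and 11.99. These 4 genes had 2 members each, all of them between genes. Tgfb2 was the highest of the 4 in vehicle replicate 2.

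Basement membrane, collagen and integrin genes gave 6 of 29 (20.7%). Both members linked to Col4a1, a type IV collagen gene, lay in the body of its neighbour Col4a2, with pileups of 14.63 and 10.07 and of 13.83 and 10.58. Itgav and Itgb6, which encode the subunits of the integrin that activates TGF-beta, had 14.66 and 10.00, and 12.89 and 11.72. At Itgav the value in vehicle replicate 2 was the lowest that list holds. Junction and polarity genes gave 4 of 27 (14.8%), with 12.91 and 10.50 near Cdh1 (E-cadherin), 12.87 and 10.64 near Cldn8 (a claudin of the collecting duct) and 11.47 and 12.75 at 66033 bp from Ctnnb1 (beta-catenin). Around Cdh1 the lists covered 48913 and 49142 bp in experiment 1 and 21398 and 28671 bp in experiment 2, so its locus was broadly called with dDAVP too.

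Cell cycle and proliferation gave 5 of 30 (16.7%), and 3 of these genes had no dDAVP call within 10 kb of the gene. Besides Ccnd1 these were Mycl, a Myc family transcription factor gene, and Cdkn1c, which encodes an inhibitor of cyclin-dependent kinases. The Mycl member covered its end (chromosome 4, 122995313 to 122996440) with pileups of 11.96 and 11.50, and the vehicle lists covered 836 and 1489 bp around the gene. At Cdkn1c the pileups were 11.39 and 10.88, and the vehicle lists covered 361 and 900 bp within 10 kb of the gene. The Cdkn1c member itself lay 9266 bp from a peak of dDAVP replicate 1. Gadd45g, a stress-induced growth arrest gene, had 3 members with pileups from 11.65 to 13.65 and from 10.35 to 12.38. Around Gadd45g the dDAVP lists covered 7790 and 5646 bp. The linked genes of this list include ones whose products drive the cell cycle and ones whose products restrain it.

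Collecting duct transcription factors gave 2 of 30 (6.67%), Lhx1 with pileups of 11.35 and 14.91 and Klf6 with 14.49 and 11.25. Glucocorticoid receptor and responsive genes gave 1 of 15 (6.67%), Hsd11b1, which regenerates active glucocorticoid, with 14.34 and 14.58. Endothelin, prostaglandin and purinergic signalling gave 0 of 21, and lists for thick limb and distal tubule (10 genes) and fibroblasts (12 genes) gave 0. In these lists only 11, 4 and 5 genes were linked to any merged region, so a count of 0 is no result about them. The intercalated cell list gave 1 of 15, Atp6v1g3, a proton pump subunit gene, with 2 members between genes at pileups of 14.80 and 12.77 and of 13.21 and 10.44. The remaining lists gave between 1 and 4 genes each.

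The lists were also cut to equal sizes. A cut adds no dDAVP peak, so a member can leave the set only by losing a vehicle call. The members kept therefore describe rank within the vehicle lists, and how much of the set rests on unequal lists was not tested. With each list cut to its 20122 most significant peaks, 362 regions were vehicle-only and 203 dDAVP-only, against 1149 and 29 with the lists as deposited. Of the 1149 members, 46 (4.00%) overlapped a vehicle-only region then. At that length 813 of the 1149 were called in neither vehicle list, 249 in vehicle replicate 2 alone and 41 in vehicle replicate 1 alone. Each of the 1103 members that left had lost its own call in at least 1 vehicle list. With lists of equal length within each experiment, 277 members (24.1%) were still vehicle-only and 59 regions were dDAVP-only. With lists cut to equal covered bases, a choice made after seeing the data, 0 regions were vehicle-only and 113 were dDAVP-only. That cut left 7075 and 6919 peaks in experiment 1 and 20122 and 11645 in experiment 2, dDAVP before vehicle. The dDAVP list was then the longer in both experiments, so this setting did not equalise the number of peaks.

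Stricter limits on the peaks kept more vehicle-only than dDAVP-only regions, but other ones. A −log10 q of at least 5 gave 689 and 9, and a fold of at least 4 gave 570 and 20, of which 3 and 0 members of the original 1149 were part. The others lay in merged regions that held a dDAVP peak in the deposited lists. Leaving out vehicle replicate 2 gave 8230 vehicle-only regions, leaving out dDAVP replicate 1 gave 7104, leaving out vehicle replicate 1 gave 3174, and leaving out dDAVP replicate 2 gave 1293. The count therefore turned mostly on the lists other than dDAVP replicate 2.

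**Figure D5:**
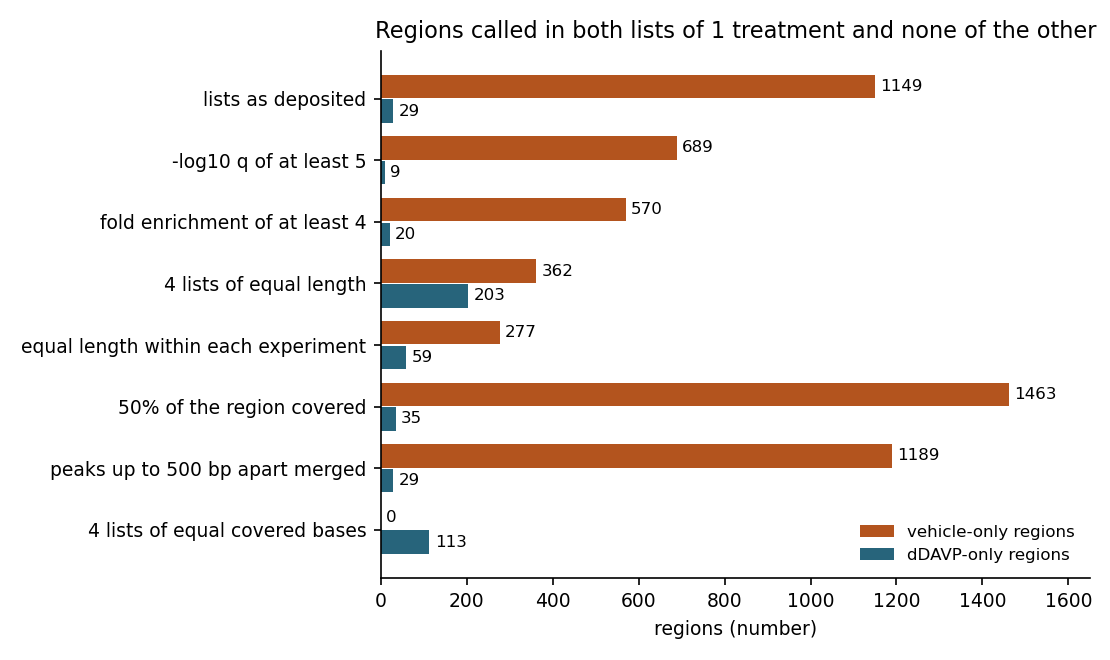
Number of vehicle-only and dDAVP-only regions (bars from 0) with the lists as deposited and under 7 other ways of cutting or merging them. Vehicle-only regions exceeded dDAVP-only regions in 7 of the 8 rows, by 1149 to 29 as deposited and 362 to 203 at equal length. They were 0 against 113 at equal covered bases, where the dDAVP list had more peaks than the vehicle list in both experiments.

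The 46 members kept at equal length had median pileups of 16.95 and 14.96 and median folds of 3.25 and 3.19, against 12.94 and 12.14 and 2.56 and 2.69 for the other 1103. The cut kept the most significant peaks, so this difference follows from the cut and is only a description. Of the 46, 9 were at a gene end, 19 in a gene body and 18 between genes. The 10 with the highest ranks were at or near Cnmd, Ckb, Cftr, Pabpc2, Frem2, Asb5, Adk, Rin2, Arhgef12 and Usp31. The Adk member, in the adenosine kinase gene, had 16.32 and 19.20 and lay 97622 bp from a dDAVP peak. The Rin2 member, in the gene of a Rab5 activator, had 16.22 and 18.29 with a dDAVP peak 1026 bp away. Of the 12 members with the highest pileup ranks, 5 were among the 46, and those nearest to Apool, Max, Adgrl4, Hoxb1, Bcas2, Fat4 and Wdr70 were not.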

How the data were processed

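H3K27ac was mapped in 4 immunoprecipitated libraries, each with its input. The submitters' processing notes name BWA, SAMtools and the build mm10. MACS 2.1.1.20160309, per the file headers, called each list in broad mode on 1 library against its own input, with q limits of 0.01 and 0.1, 50 bp tags and at most 1 tag per position. The pileup signal, the fold ratio to local background and the −log10 p and q-values are the authors' deposited values per peak. Names of both −log10 columns were lost, and they were read by their place and values. Lists hang on the input records, and headers name the immunoprecipitated library. Pileup is not scaled between libraries, so it was ranked within a list.

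Peaks were merged on overlap of at least 1 bp; 25, 15, 7 and 15 peaks on other chromosomes or scaffolds were left out of dDAVP and vehicle replicate 1, then dDAVP and vehicle replicate 2. A member's pileup is the highest of its peaks in a list. Genes (21631 protein-coding) came from RefSeq GRCm38.p6. Python 3.11.15, pandas 2.3.3, numpy 2.4.6, scipy 1.17.1 and statsmodels 0.14.6 were used, and scripts were tested on simulated data. No test over samples was made, because with 2 lists a side the smallest exact permutation p is 0.333. Members, gene lists and tests were chosen with earlier results of these data known. Named regions were the 12 highest by the smaller within-list pileup percentile, the 20 highest at gene ends, the 10 highest kept at equal length, the 5 densest groups, the genes with most members, the 3 nearest on either side of the rule, 6 promoters (none on chromosome 18), and up to 30 genes of the lists. Alternatives were stricter q and fold limits, equal lengths or covered bases, other overlap, merging, gene windows and distances, and leaving out each list. Intervals are Wilson or odds-ratio intervals for counting only.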

Additional observations from a re-analysis of the deposited data

Results flagged for a closer look

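Peaks outside chromosomes 1 to 19 and X, on Y and unplaced scaffolds, were not used for the vehicle-only regions. Each list held more than 3 of them, which was only the limit for naming them here and no test. Experiment 1 had 25 in the dDAVP list and 15 in the vehicle list, and experiment 2 had 7 and 15. Merged, they made 30 regions, 5 of them on Y, of which 0 were vehicle-only and 0 were dDAVP-only.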

How the results depend on the processing

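No paired analysis was possible because the results are counts of regions chosen by their calls in both experiments, with no test over samples that takes a block. Values within each experiment stand beside the results. Lists without read counts limit what can be said: a missing call is not a missing mark, and the weakest peaks of a list, among which most members lay, are the first to change.

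The 1149 vehicle-only regions became 689 at a -log10 q of at least 5, 570 at a fold of at least 4, 362 at equal length, 277 at equal length within each experiment and 0 at equal covered bases (the last chosen after seeing the data). Leaving out 1 list gave 1293 to 8230. The share at a gene end, 8.44%, became 20.0%, 26.8%, 16.9% and 10.5% under the first 4 of these, 12.9% with a window of 2.5 kb, 6.44% by the midpoint, 5.22% with promoter windows (chosen after seeing the data), and 5.45% to 15.5% without 1 list. The gene body share, 37.7%, became 40.6% at equal length and 37.2% to 58.2% without 1 list. The share within 50 kb of another, 16.8%, became 9.65% at the fold limit, 4.97% at equal length, 7.94% within experiments, 23.6% with 50% of the region covered, 8.44% at 20 kb, 25% at 100 kb, and 19.6% to 63.7% without 1 list. Linked genes fell from 849 to 459 within 20 kb.

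At gene ends, the ratio against dDAVP replicate 1 with vehicle replicate 2 (1.70) became 0.918 at the q limit, 0.455 at the fold limit (Fisher's exact test, adjusted p = 0.00445) and 0.819 within experiments. Against experiment 1 only (0.754) it was 0.869 within experiments and 0.849 by the midpoint (Fisher's exact test, adjusted p = 0.640 and 0.232). In gene bodies, the ratio against all but dDAVP replicate 2 (0.751) became 1.89 at the q limit, 2.13 at the fold limit, 1.28 at equal length (adjusted p = 0.0737 by Fisher's exact test), 1.55 with 50% covered and 0.914 within experiments. Against dDAVP replicate 1 with vehicle replicate 2 (1.41) it became 1.15, 1.36, 0.815 and 1.48 at the q limit, fold limit, equal length and within experiments, none of them past the threshold (adjusted p = 0.843, 0.338, 0.362 and 0.569 by Fisher's exact test). Against experiment 1 only (0.408) it became 1.05 at the q limit and 1.42 at the fold limit. The gene end ratio against all but dDAVP replicate 2 stayed under 1 and past the threshold in the 8 settings tested. The cause of these changes was not tested. Odds ratios could not be had without a list, since the compared patterns need all 4, and equal covered bases left no region for a share or ratio. Of 94 recomputed values, 46 kept their direction and call or stayed within their interval or 1.5 times, 32 moved further, 10 reversed and 6 lost their call.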

Other observations

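Gene families taken by the start of their symbols showed where linked vehicle-only regions lay beyond the lists above, as values beside the 3.92% of all protein-coding genes and the 6.40% of genes linked to any merged region. Solute carriers gave 20 of 375 genes (5.33%), including the urea transporter gene Slc14a1 and the cystine transporter gene Slc7a11. Collagens gave 6 of 44 and protein tyrosine phosphatases 6 of 44 (13.6% each), and Eph receptors and ephrins, which signal between neighbouring cells, gave 4 of 26 (15.4%). Semaphorins gave 3 of 20 (15%), Kruppel-like factors 3 of 17 (17.6%), and MAP kinase cascade genes 5 of 49 (10.2%). Potassium channels gave 2 of 94 (2.13%) and olfactory receptors 4 of 1110 (0.360%). Few olfactory receptor genes were linked to any region, and of those 25 the 4 are 16%, above the second share, while of 42 such potassium channel genes the 2 are 4.76%. Phosphodiesterases, which degrade cAMP and cGMP, gave 0 of 26, and serpins gave 0 of 63. Only 19 phosphodiesterase and 14 serpin genes were linked to any region, so a count of 0 is no result about these families. The examples were picked after the table was seen, and no family was tested.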
